A study of Mus musculus with 20 samples.

Results

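Transcription factors that drive human T-cell acute lymphoblastic leukaemia were followed in mouse thymocytes and thymic tumours. The 10 genes were Tal1, Lyl1, Lmo1, Lmo2, Hhex, Mef2c, Tlx1, Tlx3, Hoxa9 and Meis1. They were chosen by name, as probe sets whose only gene symbol in the platform annotation is one of these, and make up 52 of 182058 probe sets and 10 of the 19607 genes named on the array. All 10 were found, with between 2 probe sets (Tlx1, Tlx3) and 15 (Mef2c) each.

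The 20 arrays hold total RNA of thymocytes and of tumours from C57BL/6 mice, either wild type for Gfi1 (WT) or labelled Gfi1 knockout (KO). GFI1 is a zinc finger protein that represses transcription. The thymocytes, which are T cells maturing in the thymus, came untreated, with 2 WT and 2 KO arrays, or after irradiation, with 3 and 3. For them the KO allele, the radiation dose and the time after it are not given in these sources. Tumour mice were Gfi1 f/f (WT) or Mx1-Cre+ Gfi1 f/f (KO) and all received the mutagen ENU and, once ultrasound showed a growing mediastinal tumour, the interferon inducer pIpC, which switches on Mx1-Cre in cells that respond to interferon. Tumours of mice without a transgene (ENU tumours) had 3 WT and 3 KO arrays, and tumours of mice that also carried the Notch transgene Notch1-CT (Notch tumours) had 2 WT and 2 KO arrays. A tumour sample can therefore hold host cells and cells with undeleted Gfi1. No label says whether the samples of a group came from separate mice, so p-values measure only the spread between these samples, which may be technical, and the number of arrays limits the precision.

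In human T-cell leukaemia these factors are switched on by chromosomal rearrangements or by other lesions in a developing thymocyte, and each leukaemia tends to carry 1 of a few programmes. TAL1 and LYL1 are basic helix-loop-helix proteins that pair with E proteins and are bridged by LMO1 or LMO2 and LDB1 to GATA factors. HHEX, TLX1, TLX3, HOXA9 and MEIS1 are homeobox proteins, HHEX acting below LMO2 in thymocyte self-renewal, and MEF2C marks immature leukaemias. Outside T cells, LYL1, LMO2, HHEX and MEF2C are normal factors of blood progenitors, B cells and myeloid cells, whereas thymocytes shut most of them off as they commit to the T lineage.

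The deposited values were read as log2 signal, although neither their log base nor their background correction and normalization is stated by the labels, so a difference of 1 is a 2-fold change only if the base is 2. They have no true zero, and levels of different genes are not compared. The 8 probe sets of Gfi1 checked the labels. Gfi1 probe set 2 (numbered by identifier) read between 11.83 and 12.07 in WT untreated thymocytes and between 5.62 and 5.67 in KO, and between 11.01 and 11.43 in WT Notch tumours and between 6.31 and 7.10 in KO. In irradiated KO thymocytes probe set 2 was high (between 12.72 and 12.74, against between 11.34 and 11.61 in WT) and probe set 6 was low (between 6.88 and 7.57, against between 9.64 and 9.89), while probe set 6 read between 10.14 and 10.19 in untreated KO thymocytes. The pattern of missing Gfi1 signal thus differed between the untreated and the irradiated KO arrays, which touches each comparison of these groups. In KO ENU tumours Gfi1 probe set 2 read between 10.70 and 11.01 and overlapped WT ENU tumours, between 10.58 and 11.56, so these arrays are called by their label only. The second KO Notch tumour array stood apart: its gene values correlated with those of the other 9 tumours at between 0.841 and 0.902, against between 0.899 and 0.964 among those 9. Results that rest on it are given with and without it.

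Promoter sequences are shown for Lyl1, Hhex and Mef2c, the high genes of that array for which RefSeq (GRCm38.p6) gave one, so that the DNA before their starts can be read beside their values. Each runs 5′ to 3′ on the plus strand, which is the strand of all 3 genes, over 200 bases that end 51 bases before a RefSeq transcript start. The windows are chr8:84701207-84701406 for Lyl1, chr19:37434591-37434790 for Hhex and chr13:83503784-83503983, before the outermost start, for Mef2c. Capitals mark GAGGAA, a core of sites of the myeloid and B-cell factor PU.1, and AATC, the core of GFI1 sites, on either strand.
Lyl1: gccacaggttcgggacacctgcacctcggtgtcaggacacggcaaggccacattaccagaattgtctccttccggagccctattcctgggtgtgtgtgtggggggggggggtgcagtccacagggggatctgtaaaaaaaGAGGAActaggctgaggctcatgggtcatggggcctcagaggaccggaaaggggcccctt
Hhex: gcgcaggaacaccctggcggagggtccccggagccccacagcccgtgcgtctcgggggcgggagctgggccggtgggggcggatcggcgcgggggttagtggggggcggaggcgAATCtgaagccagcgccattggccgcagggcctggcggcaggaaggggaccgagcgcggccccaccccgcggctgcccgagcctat
Mef2c: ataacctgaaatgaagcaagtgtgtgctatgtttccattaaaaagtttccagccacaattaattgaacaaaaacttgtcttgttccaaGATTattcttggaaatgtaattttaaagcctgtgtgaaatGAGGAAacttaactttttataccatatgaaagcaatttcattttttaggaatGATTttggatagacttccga
GAGGAA occurred once in the Lyl1 window, once in the Mef2c window and not in the Hhex window, and AATC occurred 0, 1 and 2 times in Lyl1, Hhex and Mef2c. The E-box CANNTG, bound by basic helix-loop-helix proteins, occurred in the Lyl1 window (1) and the Mef2c window (2), and CCCNNGGG, an EBF1 core, in none of the 3. Of 32851 RefSeq windows of this length, 18.8% hold GAGGAA, 62.5% AATC, 59% CANNTG and 9.4% CCCNNGGG. The matches in these windows do not overlap one another. The motifs were chosen after the values were seen, and the matches describe letters only.

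Most of the 10 genes read below the 40th percentile of all genes on most arrays. That percentile served as a filter for testing and does not show which genes were on or off. Tal1 and Lyl1 lay above the 40th percentile of all genes on each of the 20 arrays, Lmo2 on 14, Mef2c on 6, Tlx3 on 4, and Hhex and Meis1 on 1 each, while Lmo1, Tlx1 and Hoxa9 lay above it on 0. Testing required a gene to lie above that percentile on at least 2 arrays of a fit. Tal1, Lyl1, Lmo2 and Mef2c met this in every fit, Tlx3 met it in the thymocyte fit and the fit of all 20 arrays, and 5 members did not meet it in any. The span of a gene over the 20 arrays (highest minus lowest log2 value) was 4.71 for Mef2c, 3.46 for Lmo2, 2.41 for Hhex and 1.84 for Lyl1, against a median of 1.07 over all genes that met the filter. The other 6 spanned between 0.32 (Tlx3) and 0.86 (Meis1). Without the second KO Notch tumour the spans were 1.47 for Mef2c, 1.36 for Lmo2, 0.84 for Hhex and 0.78 for Lyl1, against a median of 0.98 over all genes.

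**Figure D1:**
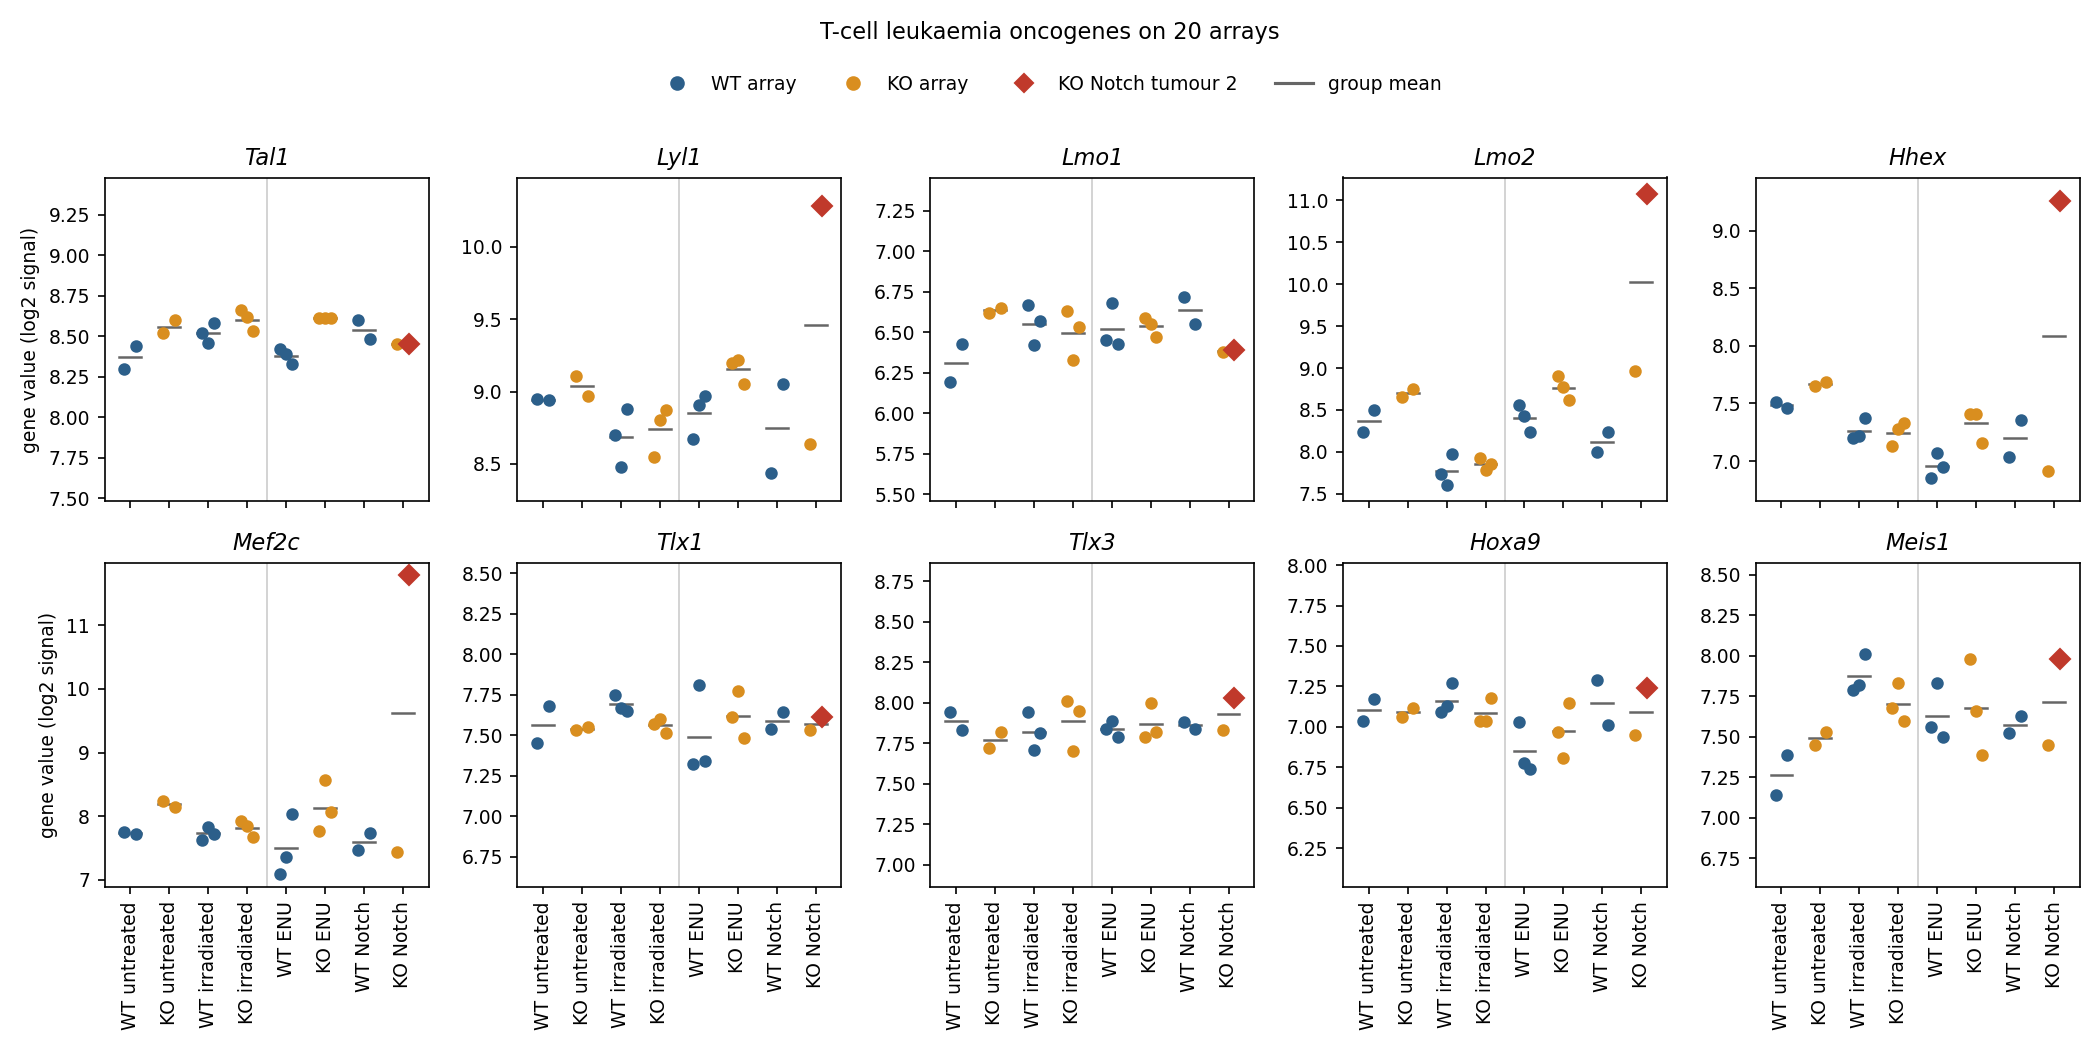
Gene value (log2 signal, vertical axis, with a span of its own in each panel) of the 10 genes in 8 groups (horizontal axis). Points are arrays, blue for WT and orange for KO, the red diamond is the second KO Notch tumour, grey bars are group means, and a vertical line parts thymocytes from tumours. The diamond stands alone at the top for Mef2c (11.79), Lmo2 (11.07), Hhex (9.26) and Lyl1 (10.28).

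Mef2c, Lmo2, Hhex and Lyl1 were all far above the thymocyte range in 1 tumour, the second KO Notch tumour. This is a description of single arrays with no test. Mef2c, a MADS box factor of B-cell, myeloid and muscle development, read 11.79 there, against between 7.63 and 8.23 in the 10 thymocyte arrays and between 7.09 and 8.56 in the other 9 tumours. Lmo2, the LIM-only bridge of the TAL1 complex, read 11.07, against between 7.61 and 8.75 in thymocytes and between 8.0 and 8.97 in the other tumours. Both genes thus passed the highest thymocyte array, Mef2c by 3.56 and Lmo2 by 2.32, and no other tumour reached these levels. Hhex, a homeobox factor that lies below LMO2, read 9.26, against between 7.13 and 7.69 in thymocytes and between 6.85 and 7.41 in the other tumours. Lyl1, the helix-loop-helix relative of TAL1, read 10.28, against between 8.48 and 9.11 in thymocytes and between 8.44 and 9.22 in the other tumours. Hhex was 1.57 and Lyl1 1.17 above its highest thymocyte array.

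Of 100 pairs of a member and a tumour array, 4 lay at least 1 above the highest thymocyte array, all on that array, and 2 of these, Mef2c and Lmo2, lay at least 2 above. No pair lay at least 1 below the lowest thymocyte array, where between 0.466% and 3.28% of the genes did so on a tumour array, with 3.28% on the second KO Notch tumour. On the same array 3.92% of the 13520 genes that met the filter, and 3.2% of all 19607, lay at least 1 above, and 1.43% and 1.18% at least 2 above. On the other 9 tumour arrays the share at least 1 above was between 0.917% and 3.29%, with 0 members among them. Genes with a larger excess than Mef2c on that array numbered 38 of 13520 (0.281%), than Lmo2 135 (0.999%), than Hhex 289 (2.14%) and than Lyl1 440 (3.25%). The median gene lay 0.37 below its highest thymocyte array.

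The probe sets of the 4 genes told the same for most of each gene. For Mef2c, 13 of 15 probe sets lay at least 1 above their own highest thymocyte array on the second KO Notch tumour, with a median excess of 3.61 and a range from -1.03 to 4.93. For Lmo2 these were 4 of 5 (median 2.19, from 0.28 to 3.79), for Hhex 3 of 3 (median 1.52, from 1.44 to 2.61) and for Lyl1 3 of 5 (median 1.10, from 0.69 to 2.61). Over all probe sets that name 1 gene, 3.54% lay at least 1 above on this array. None of the genes beside them lay at least 1 above its highest thymocyte array. The excess was 0.08 for Trmt1 and -0.33 for Nfix, neighbours of Lyl1, and -0.49 for Caprin1 and -1.27 for Fbxo3, neighbours of Lmo2. It was -1.37 for Kif11 and 0.18 for Exoc6 beside Hhex, although Exoc6, at 10.37, was higher there than on the other 19 arrays (at most 9.60 in the other tumours), and -1.20 for Cetn3 and -0.33 for Tmem161b beside Mef2c.

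**Figure D2:**
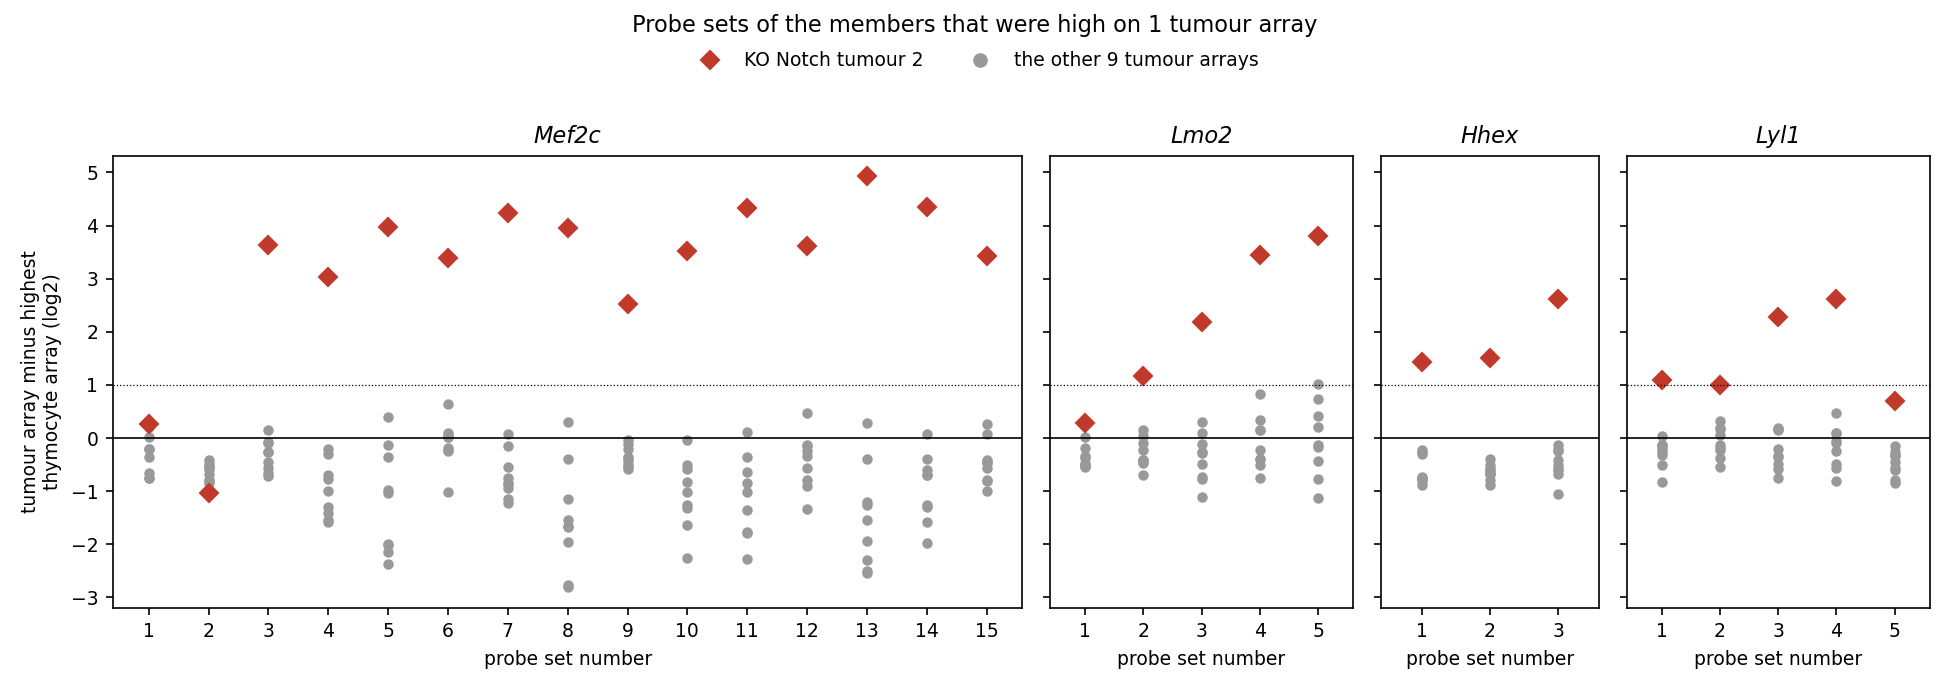
Tumour array minus the highest of the 10 thymocyte arrays (log2, vertical axis) for each probe set, by number (horizontal axis), of Mef2c, Lmo2, Hhex and Lyl1. Red diamonds are the second KO Notch tumour, grey points the other 9 tumours, and the dotted line marks 1, which 13 of 15, 4 of 5, 3 of 3 and 3 of 5 diamonds reach.

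Genes of B cells and of macrophages or dendritic cells moved with the 4 oncogenes on this array, and genes of T cells moved the other way. All 10 B-cell markers measured lay at least 1 above their highest thymocyte array there, with a median excess of 3.70. Cd79a, a part of the B-cell receptor, read 13.76 against between 8.77 and 10.80 in thymocytes, and Pax5, the factor of B-cell commitment, read 12.12 against between 7.84 and 8.53. The mean level of the 10 markers was 12.66 there and between 7.49 and 9.26 on the other 19 arrays. Of the 13 macrophage and dendritic markers, 8 lay at least 1 above, and their mean level was 10.65, but it was 10.74 in the first KO ENU tumour, where Lmo2 read 8.90, Lyl1 9.20, Hhex 7.41 and Mef2c 7.76. Of 14 T-cell markers, 11 lay at least 1 below their lowest thymocyte array. Cd3e, a chain of the T-cell receptor complex, still read 12.38 (between 13.70 and 13.90 in thymocytes), whereas Cd8a read 8.96 (between 13.37 and 13.57). Rag1, a recombinase of receptor genes, read 7.86 (between 14.22 and 14.49), but all other 9 tumours were low in it too, at between 8.20 and 13.06, and Rag2 read 5.40 here and 5.06 in the first WT Notch tumour. On the other 9 tumours between 2 and 5 of the 14 T-cell markers lay at least 1 below. None of 10 granulocyte, 12 erythroid and megakaryocyte or 13 stromal markers lay at least 1 above. The share of these other cells in the high values of Mef2c, Lmo2, Hhex and Lyl1 was not tested, and more cells of a type and more RNA per cell cannot be told apart in such bulk samples.

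**Figure D3:**
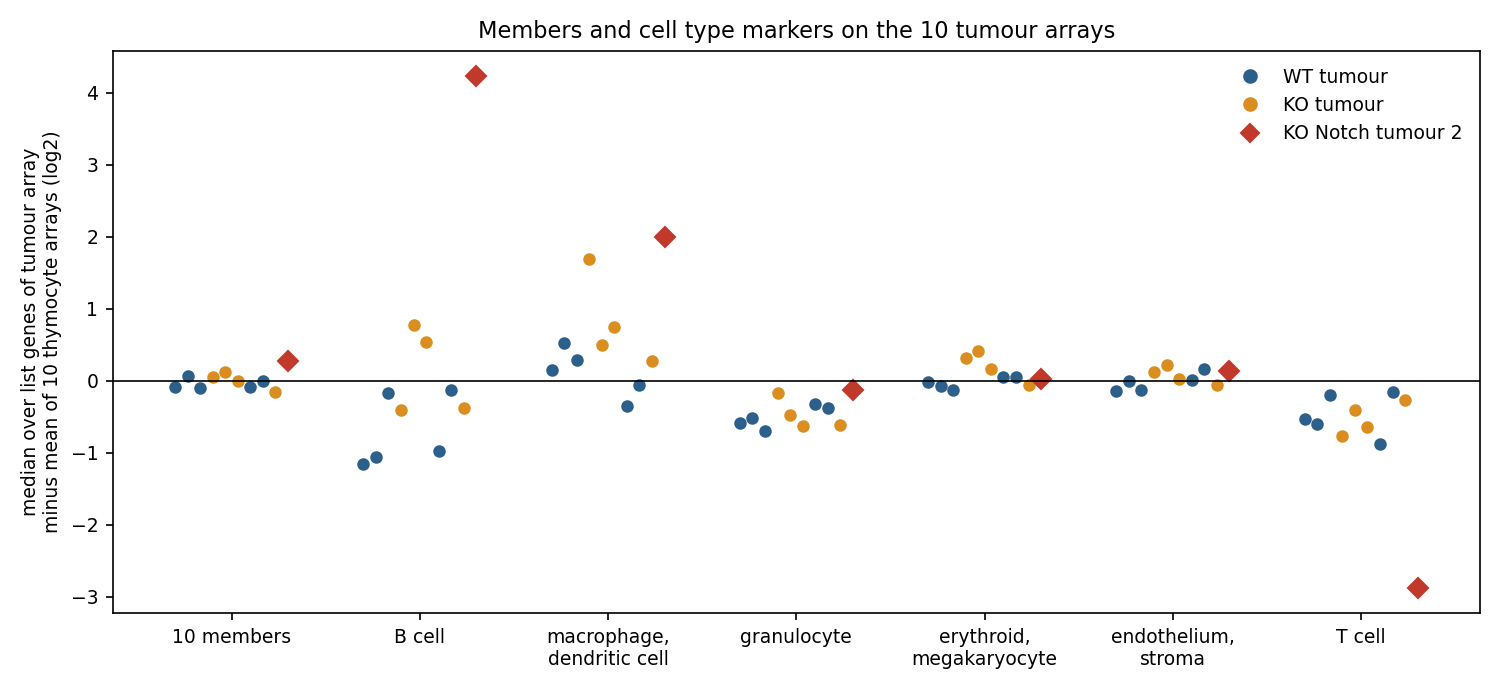
Median over the genes of a list of the tumour array minus the mean of the 10 thymocyte arrays (log2) for the 10 members and 6 marker lists, in the 10 tumours. On the second KO Notch tumour the B-cell list is 4.23 and the macrophage and dendritic list 2.00 above the thymocyte mean, the T-cell list is at -2.87 and the 10 members are 0.27 above it.

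The partners of the high factors did not rise with them as a group. Of 18 partners and relatives of TAL1, LYL1 and the LMO proteins, 1 lay at least 1 above its highest thymocyte array on that tumour, the E protein gene Tcf4 (11.94, against between 9.85 and 10.33), and 3 lay at least 1 below their lowest. Those below were the E protein gene Tcf12 (10.81, against between 12.05 and 12.56), Ssbp2 (9.90, against between 12.61 and 13.17) and Myb (9.23, against between 12.38 and 12.80). Ssbp2 read between 10.50 and 12.20 in the other 9 tumours, and Myb between 12.08 and 13.02. Of 17 other oncogenes of T-cell leukaemia 2 lay above by this measure and 1, Myb again, at least 1 below. Bcl11a, a zinc finger factor of B cells and progenitors, read 12.13 against between 7.95 and 8.74 in thymocytes, and Mef2b, a relative of Mef2c, read 10.64 against between 7.90 and 8.44, but reached 10.34 in another tumour. Of 15 genes of early progenitors that are not members 3 lay above, Dtx1, Sfpi1 and Cd44. Sfpi1, which encodes PU.1, read 12.07 against between 7.94 and 9.57 in thymocytes, and Cd44 11.01 against between 8.58 and 8.93. Dtx1 read 11.55 against between 8.79 and 10.35, but between 11.13 and 12.64 in the other 9 tumours. On each of those 9 tumours 3 genes of the full progenitor list also lay above by this measure, except the second WT Notch tumour, with 0. Notch1 read 11.06 on the second KO Notch tumour, below the 12.08 to 13.52 of the other 9 tumours. Notch3 read 8.20 there, below their 9.44 to 11.56, and the Notch target Hes1 7.84, below their 8.90 to 10.72.

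No tumour showed a high level of Tal1, Lmo1, Tlx1, Tlx3, Hoxa9 or Meis1 by this measure. On the second KO Notch tumour their distance from the highest thymocyte array ran from -0.27 (Lmo1) to 0.02 (Tlx3). Tal1, the gene most often active in human T-cell leukaemia, read between 8.33 and 8.61 in the 10 tumours and between 8.30 and 8.66 in the 10 thymocyte arrays, so the tumours lay within the thymocyte range. Lmo1, a relative of Lmo2, read between 6.38 and 6.72 in tumours and between 6.19 and 6.67 in thymocytes. Tlx1 read between 7.32 and 7.81 and Tlx3 between 7.79 and 8.03 in tumours, against between 7.45 and 7.75 and between 7.70 and 8.01 in thymocytes. Hoxa9 read between 6.74 and 7.29 in tumours and between 7.04 and 7.27 in thymocytes, and Meis1, its cofactor, between 7.39 and 7.98 against between 7.14 and 8.01. The levels of each of these 6 genes in tumours and thymocytes overlapped. Stil, the gene whose fusion with TAL1 is common in the human disease, read 2.00 below its highest thymocyte array on the second KO Notch tumour, and Pdzk1ip1, on the other side of Tal1, 0.28 below.

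In ENU tumours KO arrays read somewhat above WT arrays for several members, and none of the differences passed the test. Lmo2 read 8.56, 8.43 and 8.24 in the 3 WT and 8.90, 8.77 and 8.62 in the 3 KO arrays. Lyl1 read 8.67, 8.91 and 8.97 in WT and 9.20, 9.22 and 9.05 in KO, and Hhex 6.85, 7.07 and 6.95 in WT and 7.41, 7.41 and 7.16 in KO. For these 3 genes and for Tal1 (8.42, 8.39 and 8.33 against 8.61, 8.61 and 8.61) each KO array lay above each WT array, whereas Mef2c overlapped (7.09, 7.35 and 8.03 against 7.76, 8.56 and 8.06). Such a separation upward held for 11.7% of all genes. In the limma fit of the 10 tumour arrays (Benjamini-Hochberg over 13025 genes, threshold 0.05), 0 of the 4 members tested passed, 0 had an unadjusted p under 0.05, and 0% of all genes passed in either direction. Lmo2 differed by 0.35 ± 0.44 (SE; adjusted p = 0.664), Lyl1 by 0.31 ± 0.37 (adjusted p = 0.651), Mef2c by 0.64 ± 0.91 (adjusted p = 0.698) and Tal1 by 0.23 ± 0.11 (adjusted p = 0.363). Without the second KO Notch tumour in the fit the SE of Lmo2 was 0.14 (adjusted p = 0.208) and that of Mef2c 0.28 (adjusted p = 0.23), and 0.195% of genes passed. The mean level of the B-cell markers was between 7.49 and 8.18 in the WT and between 7.99 and 9.26 in the KO ENU tumours, and that of the macrophage and dendritic markers between 9.13 and 9.40 and between 9.41 and 10.74; their part in the members' values was not tested.

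In Notch tumours Lmo2 was the member with the clearest difference between KO and WT, and it did not pass the test across all genes. Lmo2 read 8.0 and 8.24 in the WT and 8.97 and 11.07 in the KO arrays, so both KO arrays lay above both WT arrays. Upward separation held for 12.6% of all genes. The difference of Lmo2 was 1.90 ± 0.54 (SE; limma, adjusted p = 0.61), and 0.85 ± 0.21 (adjusted p = 0.673, with 0.0389% of genes passing) with the first KO Notch tumour alone, whose spread is taken from the other groups. Mef2c read 7.46 and 7.73 in WT and 7.44 and 11.79 in KO, and Lyl1 8.44 and 9.05 in WT and 8.64 and 10.28 in KO. For both the KO arrays spanned the WT values, and the difference, 2.02 ± 1.11 for Mef2c (adjusted p = 0.807) and 0.71 ± 0.45 for Lyl1 (adjusted p = 0.828), turned to -0.16 ± 0.43 and -0.11 ± 0.27 without the second KO Notch tumour. Hhex read 7.04 and 7.36 in WT and 6.91 and 9.26 in KO. Tal1 (8.60 and 8.48 against 8.45 and 8.45) and Lmo1 (6.72 and 6.55 against 6.38 and 6.39) lay lower in both KO arrays, as did 17.3% of all genes. In all, 0 of 4 members tested passed, 1 had an unadjusted p under 0.05 (Lmo2), and 0.0154% of 13025 genes passed. The mean level of the macrophage and dendritic markers moved with Lmo2, at between 8.65 and 8.79 in the WT arrays and 9.06 and 10.65 in the KO arrays, and that of the B-cell markers was between 7.62 and 8.31 in WT and 8.05 and 12.66 in KO. Their part in these differences was not tested.

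Over both tumour types, Lmo2 was the sole member that separated the 5 tumours labelled KO from the 5 WT tumours. This pooling was chosen after its values were seen and is given with no test. The 3 KO ENU tumours in it are KO by label only, since their Gfi1 probe set 2 overlapped that of WT. Lmo2 lay between 8.62 and 11.07 in the KO and between 8.0 and 8.56 in the WT tumours. Of all 19607 genes, 0.76% separated upward and 0.673% downward in this way. The mean level of the macrophage and dendritic markers overlapped over both types (between 8.65 and 9.40 in the WT and between 9.06 and 10.74 in the KO tumours). Within each type every KO array lay above every WT array, as for Lmo2. In ENU tumours this was narrow, with at most 9.40 in WT and at least 9.41 in KO. Their part in the Lmo2 values was not tested. Notch and ENU tumours did not differ in a member by the test. In WT tumours 0 of 4 members passed (0 at an unadjusted p under 0.05, smallest adjusted p = 0.794, with 0.023% of genes passing). In KO tumours 0 of 4 passed (1 at an unadjusted p under 0.05, with 0.107% of genes passing): Lmo2 was 1.26 ± 0.49 higher in Notch tumours (adjusted p = 0.688), and 0.21 higher without the second KO Notch tumour. The KO effect on Lmo2 in Notch tumours exceeded that in ENU tumours by 1.55 ± 0.70 (limma, adjusted p = 0.68), or by 0.50 ± 0.26 without that tumour, and 0 of 4 members (0 at an unadjusted p under 0.05) and 0% of genes passed for this difference.

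Untreated thymocytes labelled KO had more Mef2c signal than WT. Mef2c read 7.75 and 7.71 in the WT and 8.23 and 8.14 in the KO arrays, so the groups stood apart. The difference was 0.46 ± 0.12 (SE; 95% interval from 0.21 to 0.70; limma over 12747 genes, adjusted p = 0.0135), and Mef2c was the 1 of 5 members tested that passed, against 6.79% of all genes higher and 5.49% lower. Mef2c met the filter in thymocytes through the 2 KO arrays alone and was not tested without either of them. With every gene tested its adjusted p was 0.0247, where 4.28% of genes rose. Without either WT untreated array the adjusted p was 0.0761 or 0.108, with the brighter probe sets of each gene alone it was 0.0873 (difference 0.37), and with all 20 arrays in 1 fit it was 1. Of its 15 probe sets 2 passed, with differences of 1.01 and 0.93, where 1.81% of all probe sets rose, and the 15 ranged from -0.08 to 1.48. Lmo2 read 8.24 and 8.50 in WT and 8.65 and 8.75 in KO (0.33 ± 0.13, adjusted p = 0.119). Lyl1 read 8.95 and 8.94 against 9.11 and 8.97, and Hhex 7.51 and 7.46 against 7.65 and 7.69. In all, 7 of the 10 members (Tal1, Lyl1, Lmo1, Lmo2, Hhex, Mef2c and Meis1) lay higher in both KO arrays than in both WT arrays and 1 (Tlx3) lower, where 24% of all genes separated upward and 28.9% downward.

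Cell-type markers moved in the same comparison. Of the B-cell markers 6 of 10 rose in KO untreated thymocytes, with a median over the list of 0.46, Blk by 0.89 and Fcer2a by 1.03, and of the macrophage and dendritic markers 7 of 11 tested rose (median 0.51), Ctss by 1.18. Of the erythroid and megakaryocyte markers 6 of 8 tested rose (median 1.13), 9 of 10 granulocyte markers fell (median -2.59), and 0 of 14 T-cell markers passed. The median over all genes was -0.02, and 6.79% of genes rose and 5.49% fell. The mean level of the B-cell markers was between 8.64 and 8.83 in WT and between 9.20 and 9.25 in KO arrays, and their part in the rise of Mef2c was not tested. Among the partners of TAL1, LYL1 and the LMO proteins 0 of 14 tested rose and 1 fell, Ssbp2 (-0.46), which stabilises LDB1. Of the early progenitor genes that are not members 7 of 14 tested rose, among them the cytokine receptor gene Flt3 (0.60), the Notch target Dtx1 (0.62) and Sfpi1 (0.74), and 1 fell, the mast cell gene Cpa3 (-0.99).

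In irradiated thymocytes no member differed between KO and WT by the test. Mef2c read 7.63, 7.83 and 7.72 in the WT and 7.92, 7.85 and 7.67 in the KO arrays, and Lmo2 7.74, 7.61 and 7.97 against 7.93, 7.79 and 7.86. The groups overlapped for both. Of 5 members tested 0 passed in limma (0 at an unadjusted p under 0.05, smallest adjusted p = 0.634), while 14.9% of the 12747 genes tested passed. With every gene tested the differences of Mef2c and Lmo2 were 0.09 ± 0.10 and 0.09 ± 0.11, and 8.99% of genes passed. Tlx1 lay lower in each KO array (7.57, 7.60 and 7.51) than in each WT array (7.75, 7.67 and 7.65), as did 10.7% of all genes. The B-cell markers stood higher in these KO arrays too, 6 of 10 rising and 1 falling (median 0.48), as did 9 of 11 macrophage and dendritic markers (median 1.01). Of the partners 3 of 14 fell, the corepressor gene Cbfa2t3 by 0.76 on the log2 scale, Ssbp2 by 0.41 and the progenitor factor gene Myb by 0.29.

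Lmo2 was lower after irradiation in both genotypes. In WT it read 8.24 and 8.50 untreated and 7.74, 7.61 and 7.97 irradiated, and in KO 8.65 and 8.75 untreated and 7.93, 7.79 and 7.86 irradiated. No irradiated array reached an untreated one of its genotype, as for 23.8% of all genes in WT and 25.9% in KO. Lmo2 fell by 0.59 ± 0.12 in WT (limma difference -0.59, 95% interval from -0.84 to -0.34, adjusted p = 0.00112), where 21.7% of genes fell and 13% rose. It fell by 0.84 ± 0.12 in KO (difference -0.84, from -1.09 to -0.59, adjusted p = 4.22e-05), where 23.7% of genes fell. In thymocytes Lmo2 met the filter through the 4 untreated arrays alone, and with every gene tested the adjusted p was 0.00247 in WT and 0.000124 in KO, where 13.5% and 15.3% of genes fell. Of its 5 probe sets 2 fell in WT and 4 in KO, where 7.04% and 9.56% of all probe sets fell. Neither call held with a filter at the 60th percentile, which Lmo2 did not meet, or with all 20 arrays in 1 fit.

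Mef2c, Hhex and Meis1 each passed the test after irradiation in 1 genotype, at the settings given. Mef2c read between 7.67 and 7.92 in irradiated and 8.23 and 8.14 in untreated KO thymocytes, and fell by 0.37 ± 0.11 (adjusted p = 0.0113). This made 2 of 5 members tested lower in KO and 0 higher, where 23.7% of genes were lower and 15.1% higher. Mef2c and Lmo2 met the filter only through untreated arrays, and with every gene tested the adjusted p of Mef2c was 0.0192. Hhex then passed as well, which made 3 of 10 members lower. The call of Mef2c was lost without the third irradiated KO array (-0.30, adjusted p = 0.0547), Mef2c was not tested without either untreated KO array, and in WT Mef2c differed by 0.00 ± 0.11. In KO 4 of the 15 probe sets of Mef2c fell, where 9.56% of all probe sets fell, and the 15 ranged from -1.20 to 0.55. Hhex, tested only when every gene was, read 7.65 and 7.69 in untreated and 7.13, 7.28 and 7.33 in irradiated KO arrays, with no overlap (-0.42 ± 0.10, adjusted p = 0.00676, where 15.3% of all genes were lower). Of the 3 probe sets of Hhex 0 passed there, with differences from -0.44 to -0.30. In WT it read 7.51 and 7.46 untreated and 7.20, 7.22 and 7.37 irradiated (-0.22 ± 0.10, adjusted p = 0.139). Meis1, also outside the filter, was higher after irradiation in WT, at 7.79, 7.82 and 8.01 against 7.14 and 7.39 (0.60 ± 0.11, adjusted p = 0.00139, where 9.85% of all genes were higher). In KO Meis1 read 7.68, 7.83 and 7.60 against 7.45 and 7.53 (0.22 ± 0.11, adjusted p = 0.168), but with the brighter probe sets of each gene alone Meis1 was higher in both genotypes, by 0.86 in WT (adjusted p = 0.000195) and by 0.45 in KO (adjusted p = 0.0113). Of the 8 probe sets of Meis1, 2 rose in WT, by 1.19 and 0.81, where 4.84% of all probe sets rose, and 0 in KO, where 6.63% rose. Lyl1 read 8.70, 8.48 and 8.88 irradiated against 8.95 and 8.94 in WT (-0.26 ± 0.12, adjusted p = 0.114) and 8.55, 8.80 and 8.87 against 9.11 and 8.97 in KO (-0.30 ± 0.12, adjusted p = 0.0659).

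The genotypes were not shown to differ in these responses. Of 5 members 0 passed the test of the difference between the responses, with 1 at an unadjusted p under 0.05, and 1.88% of genes passed. The change of Mef2c in KO was 0.37 lower than in WT (-0.37 ± 0.15, limma, adjusted p = 0.286), that of Lmo2 0.24 lower (-0.24 ± 0.17, adjusted p = 0.617), and that of Meis1, with every gene tested, 0.39 lower (-0.39, adjusted p = 0.412). The irradiated and the untreated KO arrays also differ in their Gfi1 probe sets, as given above, and the allele and the response cannot be told apart. Of the 5 members tested, 1 fell after irradiation in WT (Lmo2) and 2 in KO (Lmo2 and Mef2c), where 21.7% and 23.7% of genes fell. Markers of B cells and of macrophages or dendritic cells fell in both genotypes. In WT these were 8 of 10 B-cell markers (median -0.68) and 9 of 11 macrophage and dendritic markers (median -1.40). In KO they were 9 of 10 (median -0.83) and 9 of 11 (median -0.92). T-cell markers fell less, 7 of 14 in WT (median -0.27) and 8 of 14 in KO (median -0.28, with 1 rising). Other lists did not all fall. The mean level of the granulocyte markers fell in WT, from between 9.22 and 9.39 to between 7.95 and 8.06. In KO it went from between 6.78 and 6.86 up to between 6.97 and 7.02. That of the stromal markers in WT went from between 8.23 and 8.29 up to between 8.39 and 8.44. The part of any of these cell types in the fall of Lmo2, Mef2c and Hhex was not tested.

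**Figure D4:**
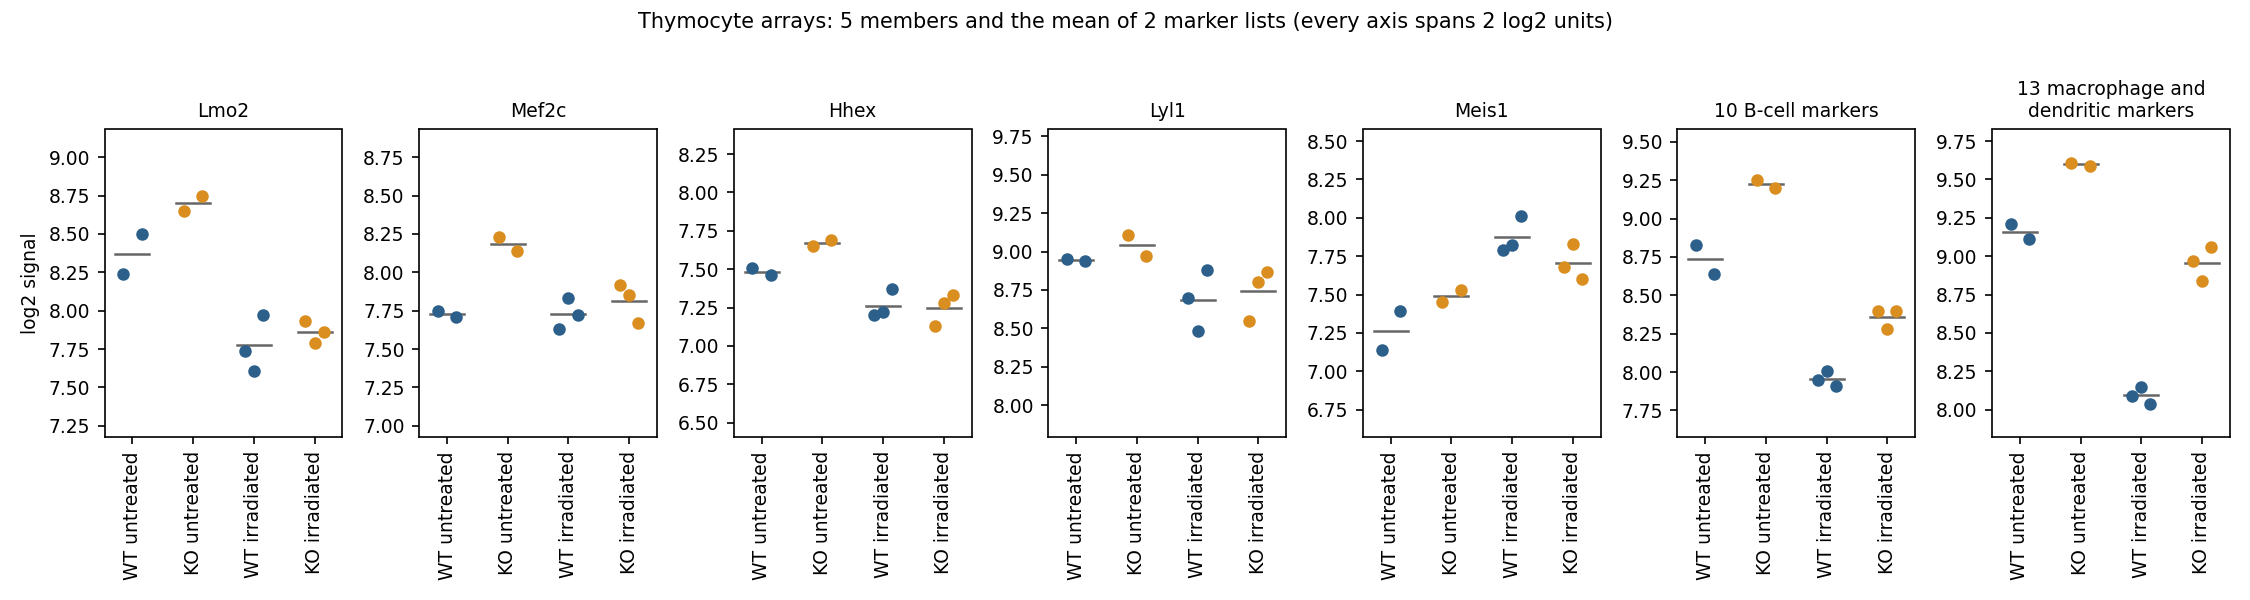
Gene value (log2, each vertical axis spanning 2 units) of Lmo2, Mef2c, Hhex, Lyl1 and Meis1, and mean value of 10 B-cell and 13 macrophage and dendritic markers, in 4 thymocyte groups (horizontal axis). Points are arrays. Lmo2 lies at between 7.61 and 7.97 in irradiated and between 8.24 and 8.75 in untreated arrays, and both marker lists are lower in the irradiated arrays of each genotype.

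Among the genes that work with the members, irradiation moved a few in each direction. Over all genes tested, 13% rose and 21.7% fell in WT, and 15.1% rose and 23.7% fell in KO. Of 14 partners tested, 2 rose in WT, the LIM-only gene Lmo4 (1.24) and the E protein gene Tcf3 (0.29), and 2 fell, the T-cell factor gene Gata3 (-1.07) and Cbfa2t3 (-0.87). In KO 1 rose (Lmo4, 1.14) and 3 fell (Cbfa2t3, -1.69, Gata3, -1.17, and the corepressor gene Rcor1, -0.47). Cbfa2t3 was the partner whose response differed between genotypes by the test (-0.82, limma adjusted p = 0.00792), where 1.88% of genes passed. Of 13 other leukaemia oncogenes tested, 2 rose and 2 fell in WT, among them Notch1 (0.52), Myc (-1.76) and the cyclin gene Ccnd2 (-1.41). In KO 2 rose and 4 fell, among them the MYC relative Mycn (0.81), Myc (-1.79) and Ccnd2 (-1.59). Of the 9 HOX, PBX and MEIS relatives tested, 1 rose in WT (Pbx3, 0.59) and 1 fell (Pbx2, -0.45), and 0 moved in KO. Of 14 early progenitor genes tested that are not members 3 rose and 5 fell in WT, and 2 rose and 8 fell in KO, Sfpi1 falling by 0.72 on the log2 scale in WT and by 1.19 in KO.

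WT tumours were set against WT untreated thymocytes in the fit of all 20 arrays, and no member passed. In WT ENU tumours 0 of 5 members passed (0 at an unadjusted p under 0.05, smallest adjusted p = 0.839), where 20.1% of 13520 genes did, and in WT Notch tumours 0 of 5 (smallest adjusted p = 0.313), where 7.68% did. Hhex read 6.85, 7.07 and 6.95 in WT ENU tumours and 7.51 and 7.46 in WT untreated thymocytes, with no overlap, as for 21.3% of all genes. Hoxa9 also lay lower in WT ENU tumours (7.03, 6.78 and 6.74 against 7.04 and 7.17). In WT Notch tumours Hhex lay lower (7.04 and 7.36), as did 27.4% of all genes, and Tal1 (8.60 and 8.48 against 8.30 and 8.44) and Lmo1 (6.72 and 6.55 against 6.19 and 6.43) lay higher, each with no overlap. With every gene tested and without the second KO Notch tumour Hhex was lower by the test (-0.53 ± 0.12, adjusted p = 0.00608, where 9.66% of genes were lower), and with that tumour it was not (-0.53 ± 0.41, adjusted p = 0.48). Meis1 read 7.56, 7.83 and 7.50 in WT ENU tumours and 7.52 and 7.63 in WT Notch tumours, above the 7.14 and 7.39 of the thymocytes (0.36 ± 0.18, adjusted p = 0.207, and 0.31 ± 0.19, adjusted p = 0.397, with every gene tested). Upward separation held for 24.3% of all genes in WT ENU and 34.7% in WT Notch tumours. In the same fit Notch1 rose by 1.83 ± 0.47 in WT ENU tumours (adjusted p = 0.0139) and its target genes Dtx1 and Hes1 by 2.41 each, while Ssbp2 fell by 1.18 on the log2 scale and the LMO partner gene Ldb1 by 0.51. These 2 comparisons share their thymocyte arrays.

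The genes whose profile over the 20 arrays was most like that of a member were found by Pearson's r, as a description in which arrays share groups and the second KO Notch tumour weighs heavily. For Mef2c they were 2010001M09Rik (r = 0.981 over 20 arrays, 0.834 over the 19 without that tumour), Pax5 (0.972 and 0.743) and the early B-cell factor gene Ebf1 (0.970 and 0.819). For Lmo2 they were P2ry13 (0.958 and 0.857), March1 (0.946 and 0.809) and Cd180 (0.942 and 0.792). For Lyl1 they were Cxcl9 (0.950 and 0.848), March1 (0.940 and 0.812) and Serpina3g (0.932 and 0.782). Tal1, with little variation of its own, was most like Mlph (0.773 and 0.788), Abp1 (0.770 and 0.786) and Igf2bp1 (0.761 and 0.782), and Tlx3 was most like Wnt9a (0.723 and 0.670), Id4 (0.720 and 0.671) and Aatk (0.695 and 0.646). Members were compared with each other only among Lmo2, Lyl1, Hhex and Mef2c, which were picked for their high values on the second KO Notch tumour. That array raises each r over 20 arrays. Among these pairs Hhex and Mef2c ran most closely together (r = 0.927 over 20 arrays and 0.584 over 19), and Lyl1 with Hhex stood at 0.876 and 0.569. Lmo2 and Lyl1 stood at 0.861 and 0.564, whereas Lmo2 and Mef2c went from 0.813 to 0.155 and Lmo2 and Hhex from 0.773 to 0.121 once that tumour was left out.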

How the data were processed

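Members, gene lists, tests and alternatives were chosen with earlier results of these data known. A Qiagen kit, the NuGEN Ovation Pico amplification and biotin labelling preceded hybridisation, per the labels. The authors deposited a value for each probe set on each array, read here as log2 signal, from 3.37 to 15.01 with array medians between 9.08 and 9.27; background correction, normalization and summary are not stated. Of the probe sets, 167016 name 1 gene in the platform annotation, which can be old, 3388 name several and 11654 none; the first kind was used.

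Gene values are medians, array by array, of probe sets centred over all 20 arrays, plus the average of the probe sets' own means. Genes were tested if above the 40th percentile on at least 2 arrays of the fit. The 12 comparisons used group means, fitted to the 10 thymocyte arrays, the 10 tumour arrays or, for tumours against thymocytes, all 20. Tests used limma 3.58.1 (lmFit, eBayes) in R 4.3.3 with version 1.17.8 of data.table, adjusted by Benjamini-Hochberg over all genes tested, at 0.05, and were tested on simulated data. Figures used Python 3.11.15 and matplotlib 3.10.9. Named are all 10 members, Gfi1, up to 4 genes of each further list by smallest p, and the 3 genes most like each member that passes the filter; neighbours, markers and genes high on 1 array were named after their values were seen. The alternatives were a further quantile normalization, other filters, other gene values, other arrays in the fit, another variance prior, a replicate block and each replicate left out; leaving out the second KO Notch tumour was added after seeing the data. Promoters come from RefSeq, GRCm38.p6, which names 13 windows for 9 of the 10 members.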

Additional observations from a re-analysis of the deposited data

How the results depend on the processing

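The count of members past the threshold in untreated thymocytes, KO against WT, went from 1 to 0 with a 60th percentile filter, with the brighter probe sets alone, with all 20 arrays in 1 fit, and without each replicate in turn (from 0 to 0). After irradiation it went in WT from 1 to 2 with no filter (Meis1 added), the mean of probe sets (Lyl1 added) or the brighter probe sets (Meis1 added), and to 0 with the 60th percentile filter or all 20 arrays (between 1 and 2 without a replicate). In KO it went from 2 to 0 with the same 2 settings, and to 3 with no filter (Hhex added), the brighter probe sets (Meis1 added) or a replicate block (Lyl1 added), and was between 1 and 2 without a replicate. Without either untreated KO array Mef2c did not meet the filter and was not tested, so its calls were not retested there. With the 60th percentile filter 1 member was tested in thymocytes, not Lmo2 or Mef2c, and with all 20 arrays the SE of Mef2c is 0.84 in place of 0.12. In Notch tumours, KO against WT, it went from 0 to 1 with all 20 arrays (Lmo2, adjusted p = 0.0362), and from 0 to 3 without a replicate, the 3 (Mef2c, Lmo2, Lyl1) when the second KO tumour stood alone. The same gave between 0 and 3 for Notch against ENU in KO tumours and between 0 and 2 for the difference in KO effect. The brighter probe sets gave 1 member (Meis1, 0.52, adjusted p = 0.0456) in place of 0 in WT ENU tumours against thymocytes, and a mark of 2 left 2 pairs above the thymocyte range. Without a replicate, 3 differences each of Mef2c and Lyl1 changed sign: KO against WT in Notch tumours (Mef2c from -0.16 to 4.2, Lyl1 from -0.11 to 1.53), Notch against ENU in KO tumours (from -0.69 to 3.67 and from -0.52 to 1.12) and the difference in KO effect (from -0.80 to 3.56 and from -0.41 to 1.23), all without the second KO Notch tumour. Where 1 array of a group remained, it was assumed to vary like the other groups. Over 20 results for single genes and 269 alternatives, 244 kept direction and side of the threshold, 8 fell below it, 11 rose past it and 6 changed sign. Most of these results had not passed to begin with. The 8 were 4 of 9 alternatives for Mef2c in untreated thymocytes, KO against WT, and 2 of 10 for Mef2c after irradiation in KO. The rest were 1 of 12 for Lmo2 after irradiation in each genotype. Alternatives in which a gene was not tested are not counted. Where no construction is named, the cause was not tested. Arrays of the same replicate number showed no clear common variation. For KO against WT, r ran from -0.32 to 0.20 over 3 pairs in irradiated thymocytes and from -0.08 to 0.04 in ENU tumours. For WT irradiated against untreated it was -0.33 and -0.46. The arrays were not treated as paired, but groups of 2 or 3 arrays are too small to exclude a pairing. A replicate block made Lyl1 lower after irradiation in KO (-0.38, adjusted p = 0.0279) and changed no other member's call. The block took the count of genes called in untreated thymocytes from 1566 to 1358, and all 20 arrays in the fit took it to 115.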
